A study of Homo sapiens with 4 samples.

Results

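The nuclear genes for the subunits of oxidative phosphorylation were examined, 78 of the 17687 genes that the platform annotation names on the array. They were chosen by symbol: 33 of complex I (NDUFA, NDUFB, NDUFC, NDUFS and NDUFV genes, without the NDUFAF assembly factors), 3 of complex II (SDHA, SDHC and SDHD), 8 of complex III (UQCR genes), 17 of complex IV (COX4I to COX8 genes) and 17 of complex V (ATP5F1, ATP5M and ATP5P genes). Of the 78, 76 are protein-coding subunit genes or their close paralogues. The others, the divergent long non-coding transcript NDUFV1-DT and the readthrough ATP5MF-PTCD1, are not subunit genes and were counted apart. The probes of ATP5MF-PTCD1 may share sequence with ATP5MF. Each gene had 1 probe set. Other genes of these complexes lie outside the 78, and of those only COXFA4, COXFA4L2 and the complex III gene CYC1 are reported below. The cells were SK-N-AS, an established human neuroblastoma line, measured on Affymetrix whole-transcript arrays. Treated cultures received 30 µM BG-P400-TAT for 48 h, and untreated cultures received phosphate-buffered saline over that time, with 2 arrays per group. The design text calls them biological replicates. No label says how the cultures were kept apart, and p-values therefore cover only array-to-array spread, which may be technical. The series title describes the compound as aimed at the norepinephrine transporter and at thyrointegrin αvβ3.

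Oxidative phosphorylation takes place in the inner mitochondrial membrane. Complex I oxidises NADH and complex II oxidises succinate, and both pass electrons through ubiquinone to complex III, from there through cytochrome c to complex IV, which reduces oxygen. Complexes I, III and IV pump protons, and complex V, the ATP synthase, lets them flow back to make ATP. Most subunits are nuclear-encoded and expressed in all tissues, and several complex IV subunits have another gene used mainly in muscle, testis or lung.

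Values are log2 expression, so a difference of 1 is a 2-fold change, and a level on 1 probe set cannot be set against that on another. The negative-control probe sets set a limit of detection: 95% of them averaged less than 6.96, and genes whose 4-array mean was greater are described as above the controls. On single arrays this limit was 7.31 and 7.64 in untreated replicates 1 and 2, and 7.19 and 7.25 on the treated arrays. By its mean, 9960 of the 21448 tested probe sets exceeded the limit. All 7 markers of mesenchymal neuroblastoma cells and 5 of 7 measured adrenergic markers were above it, whereas DBH and TH, enzymes of catecholamine synthesis, were not on any array. Of the 14 markers of other cells, 3 were above it, namely KRT18, PTPRC and ACTA1. PTPRC, a leukocyte marker, read between 12.57 and 12.80 on the 4 arrays, while CD3E, CD14 and HBB of the same list were not above the controls. Cells were lysed as whole cultures, so fewer cells of a kind and less RNA per cell cannot be told apart.

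Most subunit transcripts were detected in both groups, and those of the tissue isoforms of complex IV were not detected in either. Of the 76 subunit genes, 68 were above the negative controls, each of them on all 4 arrays. The 8 others stayed under the limit on every array: COX4I2, COX6A2, COX6B2, COX7A1, COX7B2, COX8C, NDUFS7 and ATP5MGL. In every paralogue set of complex IV the ubiquitous gene was above the controls and the gene known from a particular tissue was not. COX4I1, the ubiquitous form of subunit 4, read 10.66 and 9.99 in untreated and 10.35 and 10.62 in treated cells. COX4I2, its paralogue of lung and of oxygen-sensing cells, read 4.58 and 3.84 in untreated and 4.50 and 3.70 in treated cells. COX6A2, the heart and muscle form of subunit 6A, read 6.79, 6.43, 6.38 and 6.69 in the same order, which puts it closest to the limit among the isoforms of complex IV that were not detected. The liver-type form COX6A1 read 15.53, 15.83, 15.60 and 15.88. COX7A1, the muscle form of subunit 7A, read 4.60 and 5.38 untreated and 4.56 and 5.79 treated. COX7A2, the ubiquitous form, read 12.83 and 13.34 untreated and 13.00 and 13.29 treated, and COX7A2L, which helps to join complexes III and IV, read between 14.15 and 14.28. The testis-type genes COX6B2, COX7B2 and COX8C did not exceed 4.58, 3.74 and 6.08 on any array, while COX6B1, COX7B and COX8A were not below 13.75, 13.69 and 15.78. No isoform crossed the limit with treatment. The same held for COXFA4 and COXFA4L2, earlier named NDUFA4 and NDUFA4L2 and today counted with complex IV, which lie outside the symbol rule. COXFA4 read 15.46 and 15.59 untreated and 15.59 and 15.93 treated, and COXFA4L2, its paralogue induced by low oxygen, read 5.13 and 4.10 untreated and 4.27 and 4.13 treated.

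**Figure D1:**
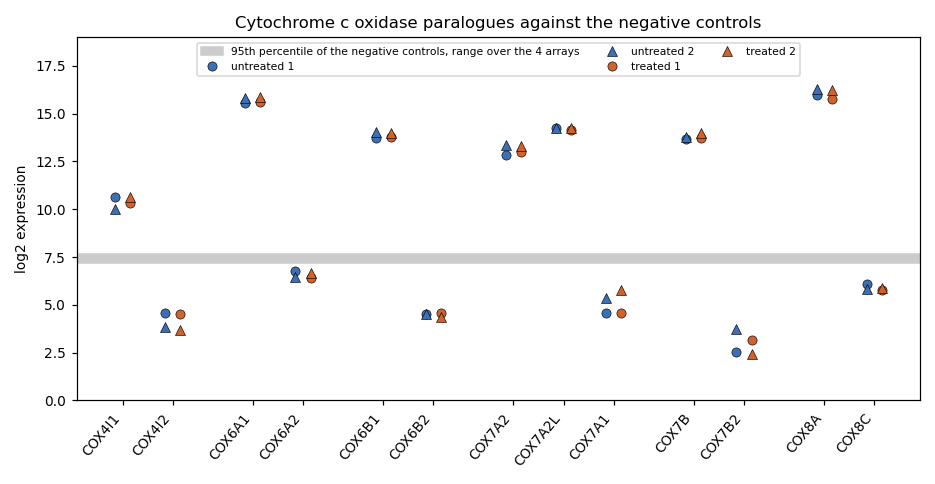
Log2 expression of the complex IV paralogue sets on each array, with untreated arrays in blue, treated arrays in orange, replicate 1 as circles and replicate 2 as triangles. The grey band spans the negative-control limits of the 4 arrays, 7.19 to 7.64. All points of the ubiquitous genes lie above the band and all points of the tissue isoforms lie below it, in both groups.

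The promoters of 3 of these pairs are shown because a short motif near the start is found in the detected gene and not in its undetected paralogue. The pairs were picked for this after their values were seen, and the other sets are counted after them. Each line holds the 100 bases before the annotated start from RefSeq (GRCh38.p14), 5′ to 3′ on the gene's strand. Capitals mark CCGGAAG in either orientation, the core bound by ETS factors such as GABPA, or the core bound by NRF1, which is GCGC, any base, then TGCGC. Both factors are known regulators of respiratory chain genes.
COX6A1: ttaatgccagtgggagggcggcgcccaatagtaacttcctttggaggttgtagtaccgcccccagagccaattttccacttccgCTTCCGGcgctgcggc
COX6A2: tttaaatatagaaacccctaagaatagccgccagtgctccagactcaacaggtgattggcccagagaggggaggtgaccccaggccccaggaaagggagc
COX6B1: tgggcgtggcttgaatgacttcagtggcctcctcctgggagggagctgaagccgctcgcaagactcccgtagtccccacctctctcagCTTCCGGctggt
COX6B2: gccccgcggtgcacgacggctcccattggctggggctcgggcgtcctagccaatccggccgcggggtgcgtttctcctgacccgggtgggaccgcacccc
COX8A: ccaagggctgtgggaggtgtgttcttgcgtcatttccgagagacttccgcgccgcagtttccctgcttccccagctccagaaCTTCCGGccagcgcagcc
COX8C: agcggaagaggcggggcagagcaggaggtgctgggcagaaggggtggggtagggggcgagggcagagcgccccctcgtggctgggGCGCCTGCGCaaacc
The windows are chr12:120438013-120438112, plus strand for COX6A1, chr16:31428361-31428460, minus strand for COX6A2, chr19:35648223-35648322, plus strand for COX6B1, chr19:55354720-55354819, minus strand for COX6B2, chr11:63974520-63974619, plus strand for COX8A and chr14:93347082-93347181, plus strand for COX8C. The ETS core began 16 bases before the start in COX6A1, 12 before in COX6B1 and 18 before in COX8A, each time in the reverse orientation. It was not found in the windows of COX6A2, COX6B2 and COX8C, and COX8C held an NRF1 core that began 15 bases before its start. Among the 300 bases from 250 before to 50 after the start, CpG numbered 22 in COX6A1 and 5 in COX6A2, 18 in COX8A and 10 in COX8C, and 16 in COX6B1 and 31 in COX6B2, so COX6B2 ran against the other pairs. Over all paralogue sets of complex IV, the ETS core was found in 4 of 7 detected genes (also in COX4I1, after its start) and in 0 of the 4 undetected genes that the promoter table holds. The detected genes COX7A2, COX7A2L and COX7B had neither core, as did the undetected COX7B2, so the pattern of the printed pairs did not extend to these sets.

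The table of promoters held 62 of the 76 subunit genes. Among the 57 of these that were above the negative controls, 18 (31.6%) had the ETS core on either strand in a window, against 24.8% of all protein-coding genes above the controls and 16.5% of all protein-coding genes. The NRF1 core was found in 14 (24.6%), against 15.2% and 9.67%. AAGATGGCG, a core bound by YY1, was found in 7 (12.3%), against 5.37% and 3.21%, and TATAAA, read on the gene's strand only, in 3 (5.26%), against 5.37% and 8.65%. At least 1 of the NRF1 and ETS cores stood in 29 (50.9%) of the members, against 36.3% and 23.9%. All YY1 matches but those of ATP5PF lay after the start, at positions up to 26. These are matches of letters in a window and not measured binding. In complex V the NRF1 core was found in ATP5F1C and ATP5PO, which had higher means in treated cells, and in ATP5ME and ATP5MJ, which had lower ones. ATP5F1C is shown as the complex V gene with the smallest p, and its core begins 22 bases before the start (chr10:7788077-7788176, plus strand).
ATP5F1C: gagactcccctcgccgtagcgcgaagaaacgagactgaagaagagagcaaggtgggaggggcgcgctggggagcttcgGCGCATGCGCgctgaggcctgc

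No subunit gene passed the test for a difference between treated and untreated cells. With limma, 0 of the 76 had an adjusted p under 0.05 (background 0.0% of 21448 probe sets), and 0 had an unadjusted p under 0.05, where the background was 5.08% of all probe sets (2.2% with treated cells higher and 2.88% lower) and 2.49% of those above the negative controls (1.89% higher and 0.602% lower). Among the 68 genes above the controls, 48 had a higher and 20 a lower mean in treated cells, with a median log2 difference of 0.058. The 9960 probe sets above the controls had a median of 0.038, with 58.6% higher, and the 21448 tested had a median of -0.0046, with 49.1% higher. Groups did not overlap in 19 of the 68 genes, 12 higher (17.6%; background 20.9%) and 7 lower (10.3%; background 11.5%) in treated cells, shares near the background. The widest differences were 0.33 for COX5B and -0.25 for ATP5F1D, and the 95% interval of each of the 68 lay within 2-fold in both directions, as it did for 95.3% of the probe sets above the controls. The median half-width of the intervals was 0.46, so differences smaller than that could mostly not be told from 0. Exact permutation of 2 arrays against 2 cannot give a two-sided p below 0.333.

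**Figure D2:**
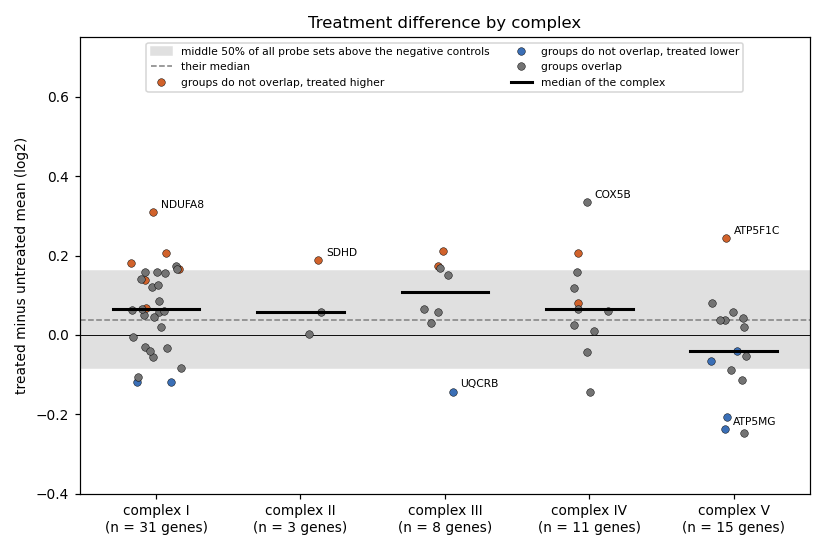
Treated minus untreated mean log2 expression of the 68 subunit genes above the negative controls (1 point per gene), by complex, with the median of each complex as a bar. Orange and blue points are genes whose treated arrays are all above or all below the untreated ones, and grey points overlap. The grey band holds the middle 50% of all 9960 probe sets above the controls and the dashed line their median. Most points lie in or near the band, with complex V centred lowest, at -0.041.

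By complex, the medians of genes above the controls were 0.066 in complex I (31 genes), 0.059 in complex II (3), 0.11 in complex III (8), 0.065 in complex IV (11) and -0.041 in complex V (15). Higher means in treated cells were seen in 22 of 31, 3 of 3, 7 of 8, 9 of 11 and 7 of 15 genes. With all 76 genes the median was 0.026 in complex IV and -0.010 in complex V. No test was made between complexes.

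In complex I, which holds the largest number of subunits, 22 of 31 detected genes had higher means in treated cells and the median absolute log2 difference was 0.11. NDUFA8, an accessory subunit with paired cysteine motifs, read 10.09 and 10.22 untreated and 10.30 and 10.62 treated, so the treated arrays were higher without overlap. Its log2 difference was 0.31 (95% interval -0.17 to 0.79; limma adjusted p = 0.949). NDUFB8, an accessory subunit of the membrane arm, read 13.11 and 13.22 untreated and 13.38 and 13.37 treated, a difference of 0.21 (interval -0.22 to 0.64). NDUFB3, of the same arm, read 12.52 and 12.56 against 12.61 and 12.83, a difference of 0.18 (interval -0.27 to 0.63). NDUFV2, which carries an iron-sulfur cluster in the NADH-oxidising part, read 10.93 and 10.88 against 11.07 and 11.08, a difference of 0.17 (interval -0.26 to 0.59). All 4 had treated arrays above both untreated arrays, with differences of means under the median half-width of 0.46. They were picked for the smallest p in the complex, so this separation follows in part from the choice. Over the complex, groups did not overlap in 6 genes with higher (19.4%; background 20.9%) and 2 with lower treated values (6.45%; background 11.5%), shares not above the background. The other higher ones were NDUFB10, by 0.14, and NDUFS5, by 0.068. NDUFV1, which binds NADH and FMN next to NDUFV2, read 12.00, 11.97, 12.02 and 11.87, with overlap. NDUFS4 (11.16 and 11.24 against 11.03 and 11.13) and NDUFA5 (11.91 and 11.73 against 11.69 and 11.72) had treated arrays below both untreated arrays. NDUFB7 varied most between replicates among complex I genes, at 10.64 and 11.03 untreated and 10.43 and 11.18 treated. The NDUFA genes above the controls were higher in 9 of 12, the NDUFB genes in 9 of 11, the NDUFS genes in 3 of 4, the NDUFV genes in 1 of 3 and the NDUFC gene in 0 of 1.

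NDUFS7, a core subunit that carries the last iron-sulfur cluster before ubiquinone, was the member closest below the limit, at 6.62 and 6.75 untreated and 7.16 and 7.05 treated. The treated arrays were higher without overlap, but all 4 values lay below the limit of their own array, so no fold is given. The member closest above the limit was UQCRHL, at 9.12 to 9.52. ATP5MGL, a paralogue of ATP5MG, read 5.31 and 5.75 untreated and 5.05 and 6.11 treated. NDUFV1-DT read 3.01 to 3.55 and ATP5MF-PTCD1 4.28 to 4.82, both below the limit on every array.

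In complex II, also an enzyme of the citric acid cycle, SDHD had the widest difference of the 3 genes and the groups did not overlap. It was the only 1 of the 3 without overlap (33.3%, against 20.9% of probe sets above the controls with treated cells higher). SDHD, a membrane anchor, read 10.03 and 10.15 untreated and 10.23 and 10.33 treated, a log2 difference of 0.19 (interval -0.25 to 0.63). SDHC, the other anchor, read 12.86 and 12.44 against 12.56 and 12.85. SDHA, the flavoprotein that oxidises succinate, read 10.70 and 10.80 against 10.75 and 10.76. For SDHC and SDHA the untreated range held or overlapped the treated values.

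In complex III, small subunits had the smallest p. UQCRQ read 14.46 and 14.49 untreated and 14.60 and 14.77 treated (log2 difference 0.21, interval -0.23 to 0.65), and UQCR10 read 10.90 on both untreated arrays and up to 11.15 in treated cells (0.17, interval -0.26 to 0.61). UQCRB, which takes part in binding ubiquinone, was the lower one, at 13.09 on both untreated arrays and 12.96 and 12.93 treated (-0.14, interval -0.57 to 0.28). These 3 of the 8 genes had groups that did not overlap, 2 higher (25%; background 20.9%) and 1 lower (12.5%; background 11.5%), shares near the background. The core genes UQCRC1 (10.88 and 11.43 against 11.16 and 11.46) and UQCRC2 (14.64 and 14.41 against 14.62 and 14.55) overlapped. UQCRH, the hinge protein that helps cytochrome c dock, read 13.67 and 13.45 against 13.51 and 13.68. UQCRHL, its intronless near-copy, read 9.45 and 9.12 against 9.39 and 9.52 (0.17, interval -0.31 to 0.65), and how far their probes can be told apart was not tested.

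In complex IV the widest difference among detected genes was that of COX5B, whose replicates also lay far apart. COX5B, a nuclear subunit on the matrix side, read 11.10 and 11.53 untreated and 11.37 and 11.93 treated, so the groups overlapped. Its log2 difference of 0.33 (interval -0.28 to 0.95; limma adjusted p = 0.961) was 0.058 without treated replicate 2, 0.12 without untreated replicate 1, 0.55 without untreated replicate 2 and 0.61 without treated replicate 1. COX5A, its neighbour in the complex, read 12.69 and 12.75 against 12.88 and 12.97 without overlap (0.21, interval -0.22 to 0.64). COX6C read 12.96 and 12.92 against 12.99 and 13.06, also without overlap. These were 2 of 11 detected genes (18.2%, background 20.9%), a share not above the background, and 0 had lower treated values without overlap (background 11.5%). COX8A was lower in treated cells by its mean, at 15.98 and 16.31 against 15.78 and 16.23, with overlap (-0.14, interval -0.70 to 0.41). COX4I1, COX6A1, COX6B1, COX7A2, COX7B and COX7C had mean differences between 0.011 and 0.16 and COX7A2L one of -0.043, all with overlapping groups.

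In complex V, 7 genes had higher and 8 had lower means in treated cells, and those with the smallest p stood on both sides. ATP5F1C, the rotating γ subunit, read 14.63 and 14.68 untreated and 14.86 and 14.94 treated, higher without overlap (log2 difference 0.24, interval -0.19 to 0.67; limma adjusted p = 0.954). ATP5F1A and ATP5F1B, the α and β subunits of the head, read 13.39 and 13.25 against 13.36 and 13.44, and 16.38 and 16.31 against 16.37 and 16.44, with overlap. ATP5F1D, the δ subunit of the central stalk, had the lowest difference, -0.25 (interval -0.79 to 0.29), from 10.41 and 10.89 against 10.31 and 10.50, and untreated replicate 2 was the high array: without it the difference was -0.0063. The membrane subunits ATP5ME, ATP5MF, ATP5MG and ATP5MJ, grouped after their values were seen, all had lower means in treated cells. ATP5MG (subunit g) read 13.88 and 14.16 against 13.74 and 13.82 (-0.24, interval -0.70 to 0.23). ATP5ME (subunit e) read 11.83 and 11.96 against 11.61 and 11.77 (-0.21, interval -0.65 to 0.24). In both genes the treated arrays lay below both untreated arrays, as they did in ATP5MJ, by a mean of 0.041. The median of the 4 was -0.16. It was -0.073 without untreated replicate 2, -0.078 without treated replicate 1 (3 of the 4 lower), -0.25 without untreated replicate 1 and -0.25 without treated replicate 2. The 3 genes of the c ring, ATP5MC1, ATP5MC2 and ATP5MC3, which encode the same mature peptide, had differences of -0.052, 0.020 and 0.042, with overlap. The peripheral stalk genes ATP5PB, ATP5PD, ATP5PF and ATP5PO lay between -0.088 and 0.038. Of these, ATP5PF had treated arrays below both untreated arrays, at 17.16 and 17.13 against 17.04 and 17.12. Over the complex, groups did not overlap in 4 of 15 genes with lower treated values (26.7%, background 11.5%). With higher treated values there was 1 (6.67%, background 20.9%). Whether these shares differ from the background was not tested.

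**Figure D3:**
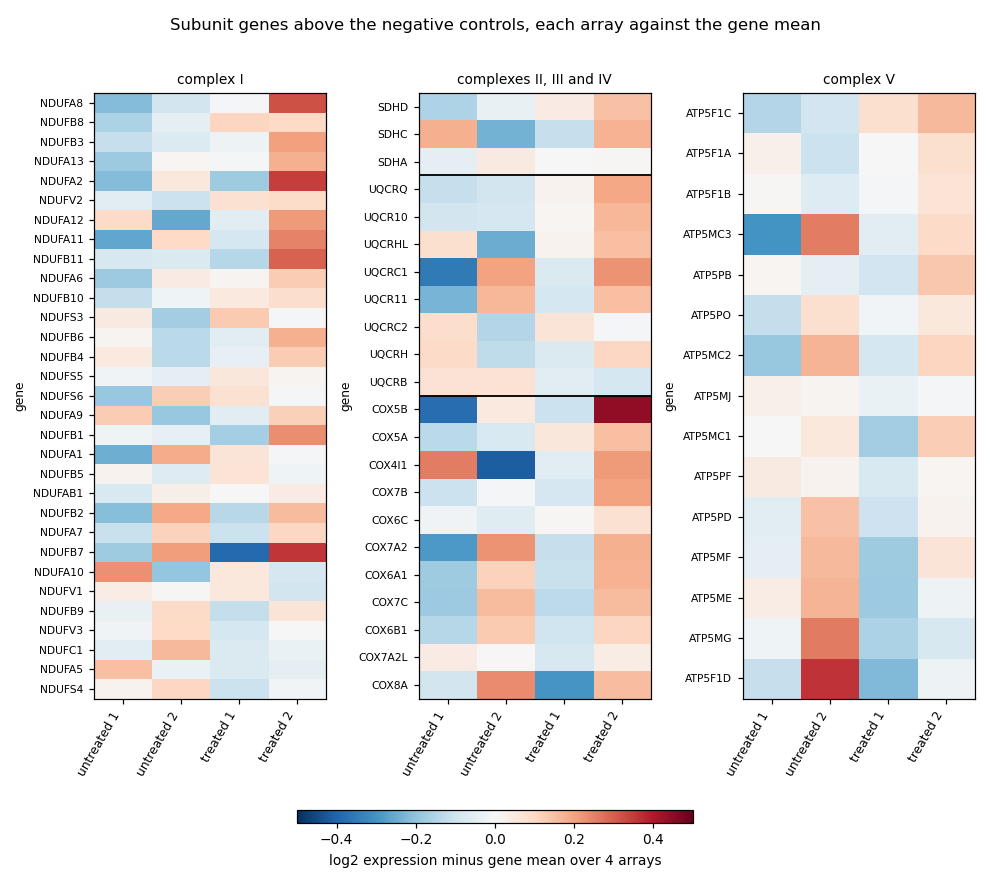
Log2 expression of the 68 subunit genes above the negative controls on each array, minus the gene's mean over the 4 arrays; red is above and blue below that mean. Within each complex genes are ordered from the highest to the lowest treated minus untreated difference. Treated replicate 2 is red in most rows, including rows in which treated replicate 1 is blue.

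Gaps between replicate arrays were wider than the differences between group means, although a gap between single arrays also varies more than a difference of means. The median absolute log2 gap of the 68 genes was 0.19 between the untreated arrays and 0.16 between the treated arrays, against a median absolute treatment difference of 0.084. In 46 of the 68 genes (67.6%) the untreated arrays were further apart than the group means, a share close to that of all probe sets above the controls (6476 of 9960). Treated replicate 2 was above treated replicate 1 in 58 of the 68 genes (85.3%), where 45.5% of all probe sets above the controls were. Untreated replicate 2 was above untreated replicate 1 in 44 (64.7%), against 42.4%. The gap was plainest in complex IV, where all 11 genes above the controls were higher on treated replicate 2 than on treated replicate 1, by a median of 0.28, and all 15 of complex V were, by a median of 0.12. No batch is given in the labels, and the part of sample handling in these gaps was not tested. The lean toward treated cells rested on single arrays. With all arrays, 51 of the 76 subunit genes, detected or not, had a higher treated mean and the median was 0.057. Without treated replicate 2 these were 36 and -0.017, and without untreated replicate 1 they were 37 and -0.012. Without untreated replicate 2 they were 51 and 0.052, and without treated replicate 1 they were 59 and 0.12. Such counts with an array left out were not made over all probe sets.

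**Figure D4:**
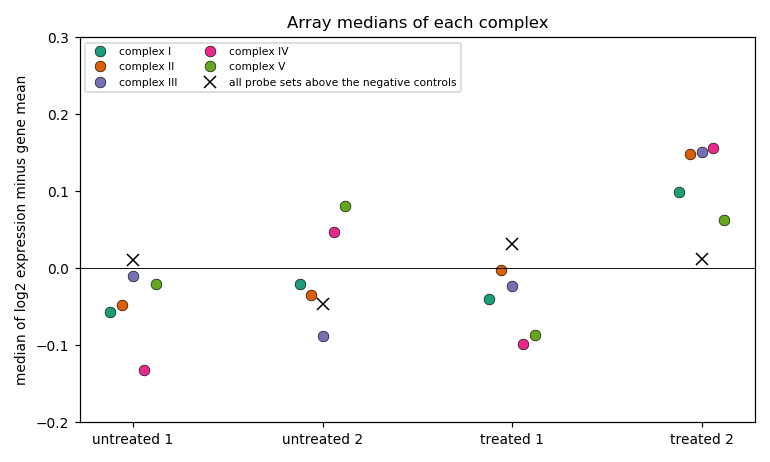
Median over genes of log2 expression minus the gene's mean over 4 arrays, for each complex (circles) and all probe sets above the negative controls (crosses). All 5 complexes are above 0 on treated replicate 2, from 0.063 in complex V to 0.16 in complex IV, and all 5 are below 0 on treated replicate 1.

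Genes that build or feed the complexes gave no call either, with 0 passing the limma adjusted test in each direction in every list. Assembly factors had higher treated means in 12 of 19 genes for complex I (median log2 difference 0.044) and 2 of 4 for complex II (-0.038). For complex III these were 7 of 9 (0.23) and for complex IV 11 of 22 (0.0024). For complex V, counted with the inhibitor ATP5IF1, they were 2 of 6 measured genes (-0.089). Genes not above the controls were included, 2 for complex I and 1 each for complexes II, III and IV. Treated means were higher in 49.1% of all probe sets tested and in 58.6% of those above the controls. UQCC3, a complex III assembly factor, read 8.27 and 7.97 untreated and 8.46 and 8.58 treated (0.40, interval -0.073 to 0.87). COA3, which helps to make the first complex IV subunit, read 11.04 and 11.01 against 11.29 and 11.59 (0.41, interval -0.053 to 0.88). Both had treated arrays above both untreated arrays, as had 20.9% of all probe sets above the controls, where 11.5% lay the other way. TMEM242 and DMAC2L of the complex V list (-0.32 and -0.27) and SDHAF3 of complex II (-0.25) had treated arrays below both untreated arrays. TTC19 of complex III did too, at 7.87 and 7.38 untreated and 7.33 and 7.24 treated. It was below the limit of its array on untreated replicate 2 and treated replicate 2, so no fold is given. Cytochrome c, carrier and channel genes were higher in 6 of 7 (0.14), all but CYC1 of complex III (-0.043). Citric acid cycle genes were higher in 6 of 11 (0.073) and mitochondrial ribosomal protein genes in 51 of 74 (0.094). Of the ribosomal protein genes, MRPL35 was lower, at -0.46 (interval -0.93 to 0.0094). MRPS31 read at most 7.14 untreated, below the limits of those arrays, and 7.60 and 7.53 treated, above them, so no fold is given. None of the 13 mitochondrially encoded subunits was named in the annotation, and they were not analysed here.

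Regulators of mitochondrial biogenesis were higher in 6 of 11 (median 0.083), a list in which 2 genes were not above the controls. PPARGC1A, a coactivator that raises respiratory chain genes, read 8.73 and 7.88 untreated and 9.14 and 8.93 treated, so both treated arrays were above both untreated arrays. Its log2 difference was 0.73 (interval 0.028 to 1.43), with a limma unadjusted p of 0.0436 and an adjusted p of 0.948, and it was 0.31 without untreated replicate 2. NRF1 read 8.72 and 8.22 against 8.74 and 8.67, and GABPA 9.86 and 9.70 against 9.73 and 9.46, both with overlap. POLRMT, the mitochondrial RNA polymerase, read 7.93 and 8.05 against 8.53 and 8.33 (0.44, interval -0.010 to 0.89).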

How the data were processed

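RNA from 2 untreated and 2 treated cultures was hybridised to 1-colour Affymetrix arrays, 1 array per sample. The deposited values are log2 expression per probe set, made by the authors with RMA (background correction, quantile normalization and summarization) in Transcriptome Analysis Console 4.0.1.36, per the submitters' processing notes. RMA gives all arrays nearly the same distribution, so a shift shared by most genes would not be seen. For the genome build of the probes, none of the labels gives a name. Gene names came from the platform annotation: of 21448 probe sets left after removing 2903 control sets, 17709 had 1 symbol and 3739 had several or none. Where a gene had more than 1 probe set (20 symbols), the brightest stood for it. All 21448 were fitted with limma 3.58.1 in R 4.3.3 (lmFit, eBayes, group as the only term) and p-values adjusted by Benjamini-Hochberg, with a threshold of 0.05. The script was tested on simulated data. The number of arrays, 2 per group, limits the precision.

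Named with values were the 4 detected genes of each complex with the smallest p, the paralogue sets, the undetected members, the members next to the limit and up to 2 detected genes of each related list; not all of the latter are printed. NDUFV1, NDUFS4, NDUFA5, NDUFB7, UQCRC1, UQCRC2, COX6C and other members outside this rule, and NRF1 and GABPA, were chosen after their values were seen. The members and lists were chosen with earlier results of these data known. Alternatives were other normalizations, filters and variance settings, all probe sets of a gene averaged, a replicate block and leaving out each array. Promoters are RefSeq windows (GRCh38.p14).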

Additional observations from a re-analysis of the deposited data

How the results depend on the processing

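Neither a subunit gene nor any of the 21448 probe sets passed the adjusted limma test under the settings run (0 in each), namely cyclic loess, median centring, quantile normalization, trended and robust eBayes, filters that dropped dim probes at 2 levels, averaged probe sets, the replicate block and each array left out. Replicate numbers are shared by both groups but no source says that they mark a common culture or day. Across genes, the replicate gaps of the 2 groups correlated at 0.31 over the 68 detected subunit genes and at 0.02 over all probe sets above the controls. With the replicate block 0 probe sets were called and 1079 had an unadjusted p under 0.05, against 1089 without it. The count of subunit genes with a higher treated mean was 51, 47 after quantile normalization, 48 after cyclic loess, and 36 to 59 with an array left out.

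With an array left out, the median log2 difference ran from -0.017 to 0.12 over all subunit genes and 0.025 to 0.16 in complex I. It ran from -0.0018 to 0.20 in complex II, 0.048 to 0.21 in complex III, -0.081 to 0.15 in complex IV and -0.12 to 0.084 in complex V. These ranges include the undetected subunit genes. With them and all arrays, the medians were 0.026 in complex IV and -0.010 in complex V. Of the 28 detected subunit genes named by the rule, 15 kept the sign of their difference in every setting. Members named outside the rule, such as ATP5MF and COX7C, were not checked gene by gene. After quantile normalization the sign turned in SDHA (-0.033) and COX6B1 (-0.0078), and after cyclic loess in SDHA (-0.040), COX6B1 (-0.016) and ATP5MC2 (-0.0022). The cause was not tested. With an array left out the sign turned in SDHC (-0.15 to 0.27), SDHA (-0.045 to 0.049), COX8A (-0.37 to 0.081), COX4I1 (-0.18 to 0.49), COX6A1 (-0.087 to 0.21), COX6B1 (-0.13 to 0.15), COX7A2 (-0.19 to 0.32), COX7A2L (-0.10 to 0.014), COX7B (-0.026 to 0.26), UQCRH (-0.081 to 0.14), ATP5MC1 (-0.20 to 0.097), ATP5MC2 (-0.16 to 0.20), ATP5MC3 (-0.24 to 0.32) and the complex I assembly factor TMEM126B (-0.48 to 0.042).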
